A study of Mus musculus with 12 samples.

Results

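The fibroblast growth factor (FGF) genes described here were 10 of the 31075 genes in the deposited table, matched by gene name. The set held 5 ligands (Fgf2, Fgf7, Fgf10, Fgf18 and Fgf21) and 5 receptors (Fgfr1, Fgfr2, Fgfr3, Fgfr4 and Fgfrl1). All 10 passed the filter on low counts, which left 19118 genes for testing. Fgfr4 passed only through the 3 WT_Norm libraries, where it was highest, so it had to differ between groups.

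FGF ligands are secreted proteins that bind receptor tyrosine kinases at the cell surface, and most of them need heparan sulfate chains to do so. The activated receptor passes the signal through the adaptor Frs2 to Ras, Raf and ERK, and ERK in turn induces its own inhibitors, among them the Sprouty and Dusp genes. Fgf21 is an exception among these ligands, since it circulates as a hormone, binds heparan sulfate weakly and needs the coreceptor beta-klotho (Klb). In growth cartilage Fgfr3 restrains the division of chondrocytes, and Fgf18 is one of its ligands.

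Poly(A) RNA was sequenced from primary fibrochondrocytes of the mandibular condylar cartilage, the fibrous cartilage that caps the jaw joint, taken from pups of 10 to 14 days. Knockout (KO) pups lacked Cspg4, the gene of the proteoglycan NG2: the KOMP knockout-first allele had been turned by Cre into a deletion allele that keeps its reporter, and the line was backcrossed to C57BL/6J. Wild type (WT) pups were C57BL/6J. There were 4 groups of 3 libraries: KO_Opti, KO_Norm, WT_Opti and WT_Norm. Norm cells grew in AMEM with heat inactivated FBS, Opti cells were kept in Opti-MEM with no serum added, and both media held L-Glut, Pen and Plasmocin. Serum and basal medium differ at once between Norm and Opti, so their effects cannot be told apart. The labels place RNA collection at passage 4, whereas the methods of the study describe use before the third passage, and whether cells of several pups were pooled is not given in the sources used here. The methods speak of biological replicates but the labels name no animal or culture, so that p-values cover only library-to-library spread, which may be technical.

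The labels give the medium in 2 places, the title and a treatment entry, which match for the 6 WT libraries. They contradict each other for the 6 KO libraries: those titled Opti have a treatment entry of growth medium, and the reverse. Groups follow the title, and counts that rest on the medium of the KO cells are given under both readings. WT_Opti against WT_Norm, and KO against WT over both media, are the same under either reading.

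Total counts per library were 51546504 to 71448484. Cspg4, the targeted gene, had 10.5 to 16.6 CPM (counts scaled to library size) in the 6 KO libraries, against 114 to 216 CPM in the 6 WT libraries. The summed CPM of 4 Y-linked genes was 73.5 to 82.1 in KO_Opti, 113 to 129 in KO_Norm and 37.5 to 66.1 in WT libraries, with no overlap, so genotype and Y-linked level cannot be told apart. The difference between the KO groups, which also enters the interaction, cannot be told apart from Y-linked level either. The summed level of 11 fibrochondrocyte markers was 31700 to 45700 CPM in KO_Opti, 58900 to 77700 in KO_Norm, 86300 to 98800 in WT_Opti and 118000 to 130000 in WT_Norm, none of these markers being at 0 in any group. Most of this sum was Col1a1 and Col1a2, which averaged 32300 and 20300 CPM in KO and 67600 and 40400 CPM in WT libraries. In KO against WT over both media 5 of the 11 were called higher and 5 lower, beside 18.0% and 16.0% of all genes. Cspg4 itself was among the 5 lower. Of the defining cartilage genes, Sox9 was 59.8 to 84.9 CPM in KO and 40.6 to 53.2 CPM in WT libraries. Acan was 8.93 to 27.7 CPM in KO libraries, 1.19 to 2.41 CPM in WT_Opti and 62.7 to 69.2 CPM in WT_Norm. Col2a1 was 36.5 to 102 CPM in KO libraries, 16.7 to 19.4 CPM in WT_Opti and 70.7 to 81.6 CPM in WT_Norm. WT_Norm libraries also carried markers of other cells unevenly: 10 epithelial markers summed to 170, 148 and 3.11 CPM in replicates 1, 2 and 3, 10 endothelial markers to 5.96, 63.6 and 11.9 CPM, and 8 glial and neuronal markers to 57.2, 47.4 and 182 CPM. In the other 9 libraries these lists reached at most 28.3, 13.5 and 47.8 CPM. The 11 myeloid markers summed to 201 to 233 CPM in KO_Opti, 572 to 633 in KO_Norm, 651 to 1130 in WT_Opti and 523 to 652 in WT_Norm. The 8 mural markers reached at most 25.3 CPM in KO libraries and lay between 38.6 and 79.4 CPM in WT libraries. The 6 adipocyte markers were 77.5 to 95.3 CPM in WT_Opti and at most 41.4 CPM in the other groups. In WT_Opti most of these sums was Notch3, at 45.4 CPM on average, and Lpl, at 80.5 CPM. Against WT_Norm 4 of the 7 mural markers tested were lower and only Notch3 was higher, beside 19.6% and 20.3% of all genes. Of the 3 adipocyte markers tested only Lpl was called, as higher. The 6 skeletal muscle markers in the table stayed at or under 9.41 CPM. At 0 throughout a group were at most 2 epithelial, 1 endothelial, 1 mural, 3 muscle and 3 adipocyte markers, none in WT_Norm. What part these markers have in the results was not tested. In bulk RNA, fewer cells of a type and less RNA per cell cannot be told apart.

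Promoter sequences from RefSeq (GRCm38.p6), 250 bases before to 50 bases after the start of transcription, were matched for 9 of the 10 genes. They are shown for Fgf21 and Fgf18, the ligands that were higher in WT_Opti than in WT_Norm. The letters searched were TGATGNAA on both strands, an amino acid response element of the kind read by the stress factor ATF4. Of 32851 windows 3.97% held it, and of the 10 windows of the FGF genes 1 did, that of Fgf21. In the 250 bases before each start, 5′ to 3′ on the strand of the gene, capitals mark the match, which reads on the opposite strand. The Fgf18 window held none, which says only that these letters are not in it.
Fgf21, chr7:45615491-45615740, minus strand: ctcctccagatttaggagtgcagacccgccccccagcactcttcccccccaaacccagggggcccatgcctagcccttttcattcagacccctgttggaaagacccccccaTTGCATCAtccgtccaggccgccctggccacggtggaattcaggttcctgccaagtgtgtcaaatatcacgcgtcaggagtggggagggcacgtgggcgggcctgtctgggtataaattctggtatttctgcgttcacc
Fgf18, chr11:33147401-33147650, minus strand: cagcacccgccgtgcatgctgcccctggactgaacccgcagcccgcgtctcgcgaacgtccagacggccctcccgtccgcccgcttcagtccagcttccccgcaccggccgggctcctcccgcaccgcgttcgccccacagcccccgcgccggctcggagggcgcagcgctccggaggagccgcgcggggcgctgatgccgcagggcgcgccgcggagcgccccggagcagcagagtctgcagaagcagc

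In a list of 22 genes known as ATF4 targets, 20 had a window and 7 held the same letters. The matches in 5 of these promoters, chosen as examples, are set beside that of Fgf21. Each line gives the bases around the match, read on the strand that carries TGATGNAA, with the 8 matched bases in capitals and their coordinates. A match is a description and not a site.
Fgf21, chr7:45615622-45615629: tggacggaTGATGCAAtggggggg
Atf3, chr1:191183436-191183443: ggacttggTGATGCAAgtgcgaga
Chac1, chr2:119351049-119351056: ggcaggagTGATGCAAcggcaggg
Trib3, chr2:152344039-152344046: cgcccggcTGATGTAAacctgagc
Asns, chr6:7693225-7693232: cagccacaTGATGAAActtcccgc
Nupr1, chr7:126625573-126625580: gccctgtcTGATGCAAtctggccc

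Levels were compared between genes in FPKM, which divides by gene length. In WT_Norm, Fgfr1 was the most abundant of the 10 genes at 52.7 ± 6.33 FPKM (SD, n = 3, as for all FPKM values). It was followed by Fgfr2 at 33.2 ± 6.07, Fgf7 at 32.6 ± 7.90, Fgfrl1 at 21.1 ± 1.91, Fgfr3 at 9.80 ± 1.05 and Fgf2 at 5.09 ± 1.13 FPKM. Fgfr2 and Fgf7 did not differ beyond their spread. Fgf18, Fgfr4, Fgf21 and Fgf10 came last at 0.168, 0.160, 0.135 and 0.0776 FPKM, each overlapping its neighbour in that order. In WT_Opti the place of the low ligands changed: Fgf18 averaged 2.07 ± 0.301 and Fgf21 1.71 ± 0.112 FPKM, with ranges that overlap each other and that of Fgfr3 at 1.61 ± 0.33 FPKM. In both KO groups Fgfr1 and Fgf7 came first, at 34.0 ± 1.98 and 31.8 ± 2.29 FPKM in KO_Opti, where their ranges overlapped, and at 39.3 ± 1.09 and 22.3 ± 3.12 FPKM in KO_Norm, where they did not. The lowest gene was Fgf10 in WT_Norm and Fgfr4 in the other 3 groups.

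**Figure D1:**
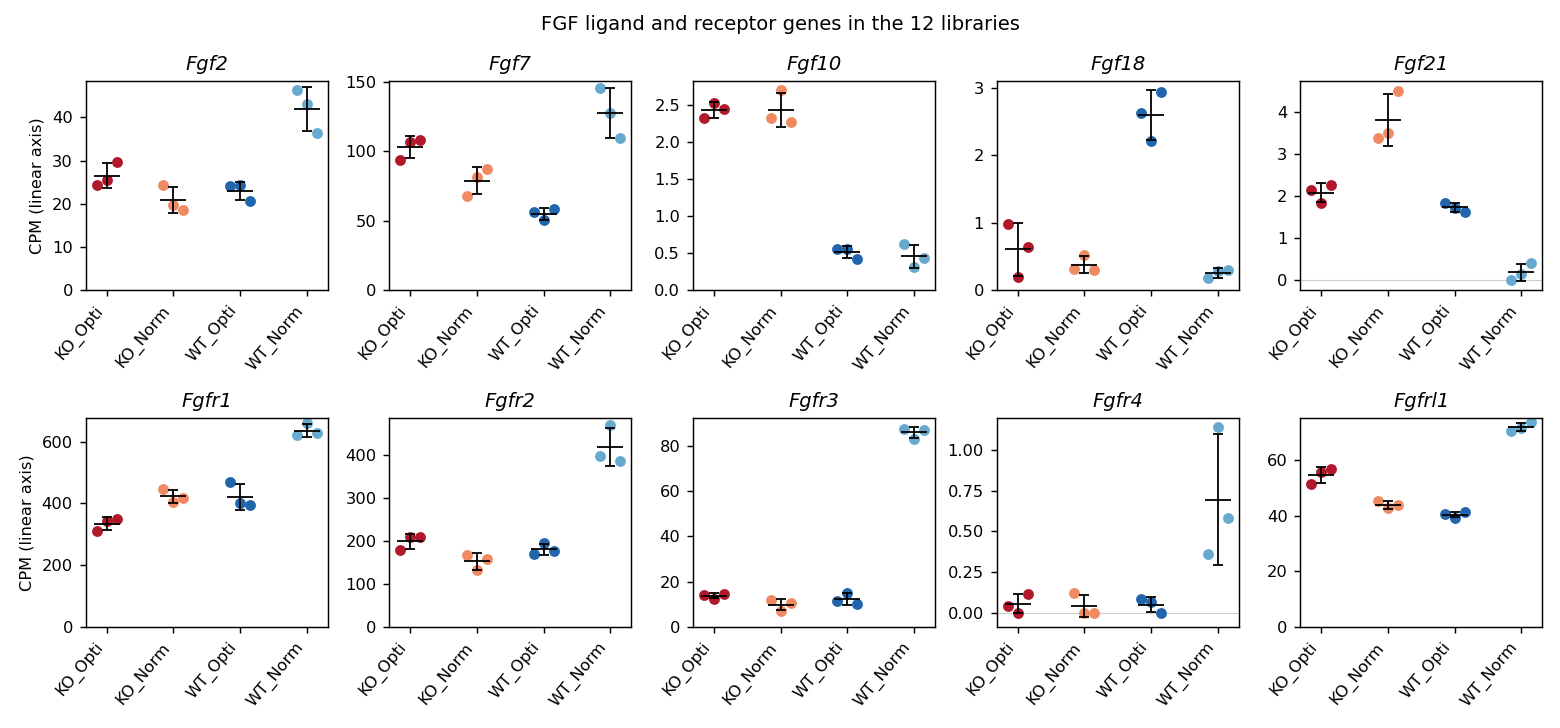
CPM (linear axis) of the 10 FGF genes in KO_Opti, KO_Norm, WT_Opti and WT_Norm; points are libraries, and the bar and whiskers are the mean ± SD (n = 3). WT_Norm lies above the other 3 groups for Fgf2, Fgf7 and the 5 receptors, the 6 KO libraries lie above the 6 WT libraries for Fgf10, and WT_Opti lies above the rest for Fgf18.

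The first comparison asks what the medium without serum changed in WT cells. Leaving out Fgfr4, which had to differ, WT_Opti was lower than WT_Norm for 6 of the 9 other FGF genes, higher for 2, and not called for Fgf10. Of all genes tested 19.6% were called lower and 20.3% higher, at an adjusted p under 0.05 in edgeR's quasi-likelihood test with Benjamini-Hochberg adjustment over 19118 genes. The libraries of the 2 groups did not overlap in CPM for 8 of the 9 genes, and the share of all genes without overlap was not counted. The median log2 fold change of the 9 was -0.83, against -0.01 over all genes.

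Fgfr3, the receptor that restrains chondrocyte growth, had 11.2, 15.1 and 10.3 CPM in WT_Opti, against 87.4, 83.0 and 87.1 CPM in WT_Norm. The 3 WT_Norm libraries were close to each other and far above all 9 others. The log2 fold change was -2.81 ± 0.18 (SE, edgeR adjusted p = 1.66e-07), a 7.03-fold lower level. The epithelial marker sum of the 3 WT_Norm libraries ran between 3.11 and 170 CPM, while their fibrochondrocyte and their glial and neuronal sums lay above those of all WT_Opti libraries, and the part of these markers in the difference was not tested.

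Fgfr2, whose splice forms are read by Fgf7 and Fgf10 in epithelia and by other ligands in mesenchyme, had 169, 194 and 177 CPM in WT_Opti, against 398, 469 and 386 CPM in WT_Norm. The log2 fold change was -1.21 ± 0.12 (edgeR adjusted p = 5.05e-06). Splice forms were not separated in these gene counts. Fgfr1, the main mesenchymal receptor, had 470, 401 and 394 CPM in WT_Opti and 621, 660 and 627 CPM in WT_Norm, a smaller gap with no overlap (log2 fold change -0.59 ± 0.09, edgeR adjusted p = 0.000271). Fgfrl1, a receptor without a kinase domain, had 40.8, 39.3 and 41.2 CPM in WT_Opti, against 70.7, 71.7 and 73.6 CPM in WT_Norm. The log2 fold change was -0.83 ± 0.07 (edgeR adjusted p = 2.3e-06).

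Fgfr4 was barely detected, with raw counts of 6, 4 and 0 in WT_Opti, against 23, 72 and 27 in WT_Norm. The groups did not overlap, and 0 counts in WT_Opti replicate 3 allow up to 0.0472 CPM by counting error. Its difference is given as values only, since the low-count filter let it in through WT_Norm alone.

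The ligands split. Fgf2, a broad mitogen, had 24.0, 24.4 and 20.6 CPM in WT_Opti and 46.3, 43.0 and 36.4 CPM in WT_Norm (log2 fold change -0.87 ± 0.13, edgeR adjusted p = 2e-04). Fgf7, a ligand made by mesenchyme that acts on epithelial Fgfr2, had 56.3, 50.3 and 58.3 CPM in WT_Opti and 146, 128 and 110 CPM in WT_Norm (log2 fold change -1.22 ± 0.12, edgeR adjusted p = 6.52e-06). Neither gene overlapped between the groups.

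Fgf18 and Fgf21 were higher. Fgf18, a ligand known for its part in cartilage and bone growth, had 2.63, 2.21 and 2.94 CPM in WT_Opti, against 0.174, 0.284 and 0.302 CPM in WT_Norm. All 3 WT_Opti libraries, with 142 to 187 raw counts, stood above the 11 to 18 raw counts of WT_Norm. The log2 fold change was 3.35 ± 0.53 (edgeR adjusted p = 0.000262), a 10.2-fold higher level. Fgf21, the hormone-like ligand, had 129, 110 and 103 raw counts in WT_Opti, against 0, 8 and 18 in WT_Norm. These are 1.84, 1.71 and 1.62 CPM in WT_Opti and 0, 0.126 and 0.388 CPM in WT_Norm, without overlap. The log2 fold change was 3.40 ± 0.67 (edgeR adjusted p = 0.00138), and 2.76 without WT_Norm replicate 1 or 4.71 without WT_Norm replicate 3, called in both cases. Fgf10 had 0.557, 0.559 and 0.425 CPM in WT_Opti and 0.616, 0.316 and 0.431 CPM in WT_Norm, which overlap (log2 fold change 0.17 ± 0.29, edgeR adjusted p = 0.671).

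The next comparisons set KO cells against WT cells for the same genes. The study bought its control mice, bred the KO line separately and names no littermate controls. Loss of NG2/CSPG4 therefore cannot be told apart from other differences between the lines. Fgf10 is the gene that separated the genotypes. It had 2.32, 2.53 and 2.44 CPM in KO_Opti and 2.32, 2.70 and 2.27 CPM in KO_Norm, against 0.425 to 0.559 CPM in WT_Opti and 0.316 to 0.616 CPM in WT_Norm. Every KO library was above every WT library, with 147 to 190 raw counts in KO and 20 to 39 in WT. Over both media the log2 fold change was 2.32 ± 0.20 (edgeR adjusted p = 2.83e-06), a 5.01-fold higher level. Fgf10 encodes a mesenchymal ligand required for budding of many epithelial organs. It was the only 1 of the 10 genes whose KO and WT libraries did not overlap over both media, and the share of all genes that did so was not counted.

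Over both media, KO cells were higher than WT cells for 2 of the 10 FGF genes, Fgf10 and Fgf21, and lower for 4, Fgf2, Fgfr1, Fgfr2 and Fgfr3. Of all genes 18.0% were called higher and 16.0% lower. Fgf21 differed by a log2 fold change of 2.41 ± 0.44 (edgeR adjusted p = 0.00102; 3.08 without WT_Norm replicate 3) and Fgfr3 by -1.48 ± 0.12 (edgeR adjusted p = 2.09e-06). For these genes, as for the other 3 called beside Fgf10, the KO and WT libraries overlapped, and the WT_Norm group stood apart from the other 3 groups. With the Y-linked level as a covariate in the edgeR fit 2.13% of all genes were called higher and 3.03% lower, and 3 of the 10 FGF genes were called: Fgf10 at 2.70 (adjusted p = 0.0231), Fgfr2 at -0.95 (adjusted p = 0.0207) and Fgfr3 at -1.64 (adjusted p = 0.0145).

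KO_Norm was lower than WT_Norm for 6 of the 9 genes other than Fgfr4 and higher for 2, against 17.2% and 18.9% of all genes. Fgfr3 had 11.8, 7.20 and 10.4 CPM in KO_Norm, against 87.4, 83.0 and 87.1 CPM in WT_Norm (log2 fold change -3.13 ± 0.18, edgeR adjusted p = 1.17e-07). Fgf21 had 3.39, 3.51 and 4.52 CPM in KO_Norm, against 0, 0.126 and 0.388 CPM in WT_Norm (log2 fold change 4.54 ± 0.69, edgeR adjusted p = 0.000258; 3.91 without WT_Norm replicate 1 and 5.87 without replicate 3). Both genes were without overlap, and the KO_Norm libraries held the highest Fgf21 of all 12. Fgf10 was higher by 2.41 ± 0.29 (edgeR adjusted p = 4.05e-05). The other genes called lower were Fgfr2 at -1.46 ± 0.12, Fgf2 with a 2.01-fold lower level, Fgfrl1 at -0.71 ± 0.07, Fgf7 at -0.70 ± 0.12 and Fgfr1 at -0.59 ± 0.09 (edgeR adjusted p between 1.82e-06 and 0.000767). Fgfr4 had 8, 0 and 0 raw counts in KO_Norm, against 23, 72 and 27 in WT_Norm. Fgf18 was not called (0.57 ± 0.52, edgeR adjusted p = 0.426). With the Y-linked covariate, which left 2.14% of all genes called higher and 2.61% lower, 4 of the 10 were called: Fgf21 was higher, and Fgf2, Fgfr2 and Fgfr3 were lower, while Fgf10 was at 2.95 (edgeR adjusted p = 0.0667).

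If the treatment entries of the KO libraries are right, the KO libraries in growth medium are those titled Opti. Against WT_Norm these were lower for 5 of the 9 genes other than Fgfr4 and higher for 2, beside 20.3% and 21.3% of all genes. Fgfr3 then differed by -2.64 ± 0.18 and Fgf21 by 3.67 ± 0.67 (edgeR adjusted p = 2.65e-07 and 0.000826). Fgf7, with 93.8, 107 and 108 CPM in KO_Opti, missed the threshold (-0.32 ± 0.12, edgeR adjusted p = 0.0536). Fgf2, Fgfr1, Fgfr2, Fgfr3 and Fgfrl1 were lower, and Fgf10 and Fgf21 higher, than WT_Norm under either reading.

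**Figure D2:**
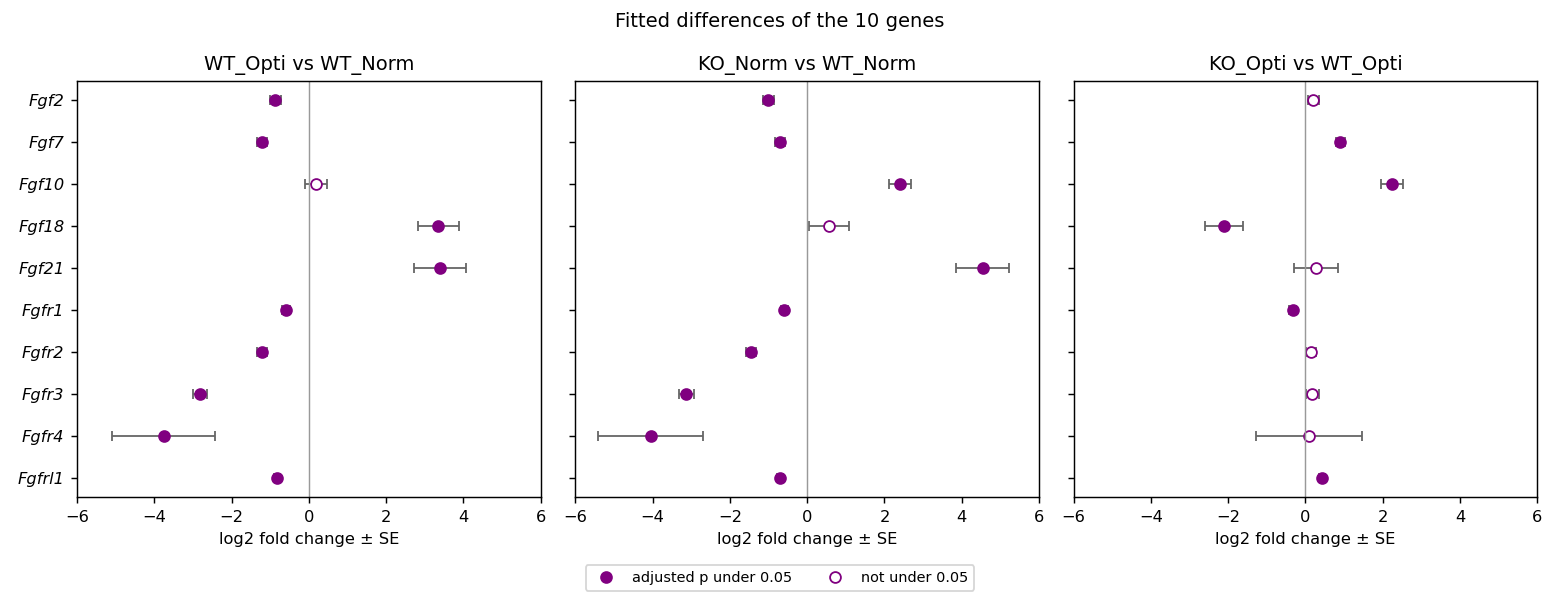
Log2 fold change ± SE of the 10 FGF genes for WT_Opti against WT_Norm, KO_Norm against WT_Norm and KO_Opti against WT_Opti, with media of the KO libraries taken from the titles. Filled points had an adjusted p under 0.05 in edgeR: 9, 9 and 5 of the 10 genes, with Fgfr4, which had to differ, among the 9 in both cases.

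KO_Opti was higher than WT_Opti for 3 of the 10 genes and lower for 2, against 13.3% and 14.9% of all genes. Fgf10 was higher by 2.24 ± 0.28 (edgeR adjusted p = 8.83e-05). Fgf7 had 93.8, 107 and 108 CPM in KO_Opti, against 56.3, 50.3 and 58.3 CPM in WT_Opti, without overlap (log2 fold change 0.90 ± 0.12, edgeR adjusted p = 0.000155). Fgfrl1 was higher by 0.43 ± 0.07 (edgeR adjusted p = 0.00082).

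Fgf18 had 0.981, 0.188 and 0.642 CPM in KO_Opti, against 2.63, 2.21 and 2.94 CPM in WT_Opti. The KO_Opti libraries were uneven, with 69, 14 and 50 raw counts, but all lay below WT_Opti (log2 fold change -2.10 ± 0.49, edgeR adjusted p = 0.00642; adjusted p = 0.0575 with the Y-linked covariate). Fgfr1 was lower by a log2 fold change of -0.33 ± 0.09 (edgeR adjusted p = 0.018), and this call was lost without KO_Opti replicate 1 (-0.28, adjusted p = 0.0539), without WT_Opti replicate 1 (-0.25, adjusted p = 0.088) and with the Y-linked covariate (-0.36, adjusted p = 0.0789). Fgfr2, Fgfr3 and Fgf21 were not called, at 0.14 ± 0.12, 0.18 ± 0.17 and 0.27 ± 0.56.

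By the treatment entries, the KO libraries to be set against WT_Opti are those titled Norm. They were higher for 2 genes, Fgf10 at 2.24 ± 0.28 and Fgf7 at 0.52 ± 0.12, and lower for 1, Fgf18 at -2.78 ± 0.51 (edgeR adjusted p = 0.00011, 0.00792 and 0.00168). Of all genes 12.6% were called higher and 11.0% lower. Fgf10, Fgf7 and Fgf18 were thus called in the same direction against WT_Opti under either reading, whereas Fgfr1 was at 0.00 ± 0.09 and Fgfrl1 at 0.12 ± 0.07 by the treatment entries.

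Between the KO groups themselves the called differences were small. KO_Opti was higher than KO_Norm for Fgf7 (0.38 ± 0.12), Fgfr2 (0.38 ± 0.12) and Fgfrl1 (0.31 ± 0.07), and lower for Fgfr1 (-0.34 ± 0.09), at edgeR adjusted p of 0.0444, 0.038, 0.0112 and 0.0249. Of all genes 8.39% were called higher and 11.0% lower. The count of 4 was 0 without KO_Opti replicate 3, 1 without KO_Norm replicate 3, and 2 without KO_Opti replicate 1 or 2, KO_Norm replicate 2 or WT_Opti replicate 3. Calls over all genes were 1604 higher and 2105 lower with all libraries. They were 1025 and 1312 without KO_Opti replicate 3, and 886 and 1325 without KO_Norm replicate 3. Without KO_Opti replicate 1 they were 878 and 1284, and without KO_Opti replicate 2 they were 1730 and 1962. They were 986 and 1341 without KO_Norm replicate 2, and 1486 and 2043 without WT_Opti replicate 3. The count of FGF genes was also 2 with the replicate block or without a filter on low counts, and 0 with the Y-linked covariate. By the treatment entries the same differences have the opposite sign as an effect of medium. Fgf10 was at 0.00 ± 0.27, Fgf18 at 0.68 ± 0.50 and Fgf21 at -0.87 ± 0.56, none of them called. Fgf21 was 1.82 to 2.27 CPM in KO_Opti and 3.39 to 4.52 CPM in KO_Norm, without overlap. It was called when only the groups compared were fitted (-0.85, edgeR adjusted p = 0.0222).

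Whether the medium acted differently in KO and WT cells was tested as an interaction, positive where Opti minus Norm was higher in KO than in WT. It was called for 7 of the 10 genes, 5 positive and 2 negative, against 14.4% and 17.0% of all genes. Fgfr3 had the largest called positive value at 3.30 ± 0.25 (edgeR adjusted p = 1.35e-06): its medium difference was 0.49 ± 0.17 in KO cells and -2.81 ± 0.18 in WT cells. Fgf7, Fgfr2, Fgf2 and Fgfrl1 were at 1.60 ± 0.17, 1.60 ± 0.17, 1.21 ± 0.19 and 1.14 ± 0.10. Fgf21 was at -4.28 ± 0.87 (-3.60 without WT_Norm replicate 1 and -5.57 without replicate 3) and Fgf18 at -2.67 ± 0.71 (edgeR adjusted p = 0.00263 and 0.0128). With the Y-linked covariate the call of Fgf18 was lost (-2.54, edgeR adjusted p = 0.13). Fgf10 was not called (-0.17 ± 0.39, edgeR adjusted p = 0.767).

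By the treatment entries 8 were called, 6 positive and 2 negative, against 17.2% and 17.5% of all genes. The same 7 genes kept their sign and call and Fgfr1 was added, at 0.93 ± 0.13 against 0.26 ± 0.13 by title (edgeR adjusted p = 0.000165 and 0.163). The values of Fgfr3 and Fgf21 were 2.32 ± 0.25 and -2.53 ± 0.86 in that reading. Both readings share the WT difference and only turn the sign of the KO difference. The KO difference was the smaller of the pair for these 7 genes, so a kept sign adds little.

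**Figure D3:**
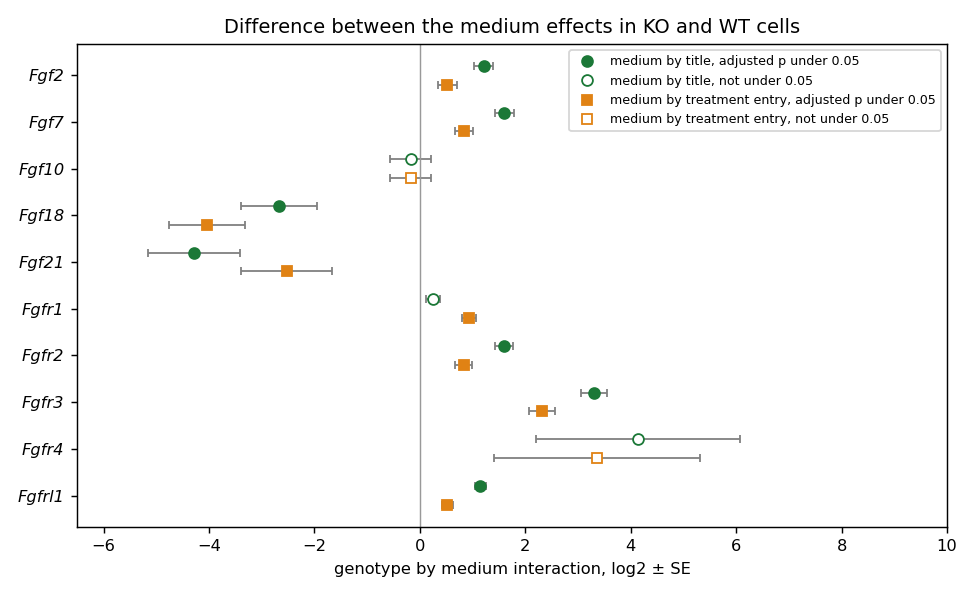
Genotype by medium interaction (log2 ± SE) of the 10 FGF genes with the medium of the KO libraries taken from the title (circles) or from the treatment entry (squares); filled symbols had an adjusted p under 0.05. The 7 genes called by title lie on the same side of 0 in both readings, which share the WT difference, and Fgf10 is near 0 in both.

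The make-up of the receptor mRNA was described as shares of the summed FPKM of Fgfr1 to Fgfr4, with no test. The sum was 55.2 ± 3.62 FPKM in KO_Opti, 54.0 ± 2.75 in KO_Norm, 58.6 ± 3.28 in WT_Opti and 95.9 ± 13.1 in WT_Norm. Fgfr3 held 3.50 ± 0.411% of it in KO_Opti, 2.30 ± 0.409% in KO_Norm and 2.75 ± 0.579% in WT_Opti, against 10.3 ± 0.815% in WT_Norm. The WT_Norm libraries, at 9.32 to 10.7%, were apart from all others, of which the highest was 3.88%. Fgfr1 held 61.6 ± 0.524% in KO_Opti, 72.7 ± 2.01% in KO_Norm, 68.9 ± 3.36% in WT_Opti and 55.1 ± 1.15% in WT_Norm. The share of Fgfr2 was 34.9 ± 0.915% in KO_Opti, 24.9 ± 1.59% in KO_Norm, 28.3 ± 2.93% in WT_Opti and 34.5 ± 1.86% in WT_Norm, so that KO_Opti and WT_Norm overlapped in it. Fgfr4 held at most 0.257% in any library.

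**Figure D4:**
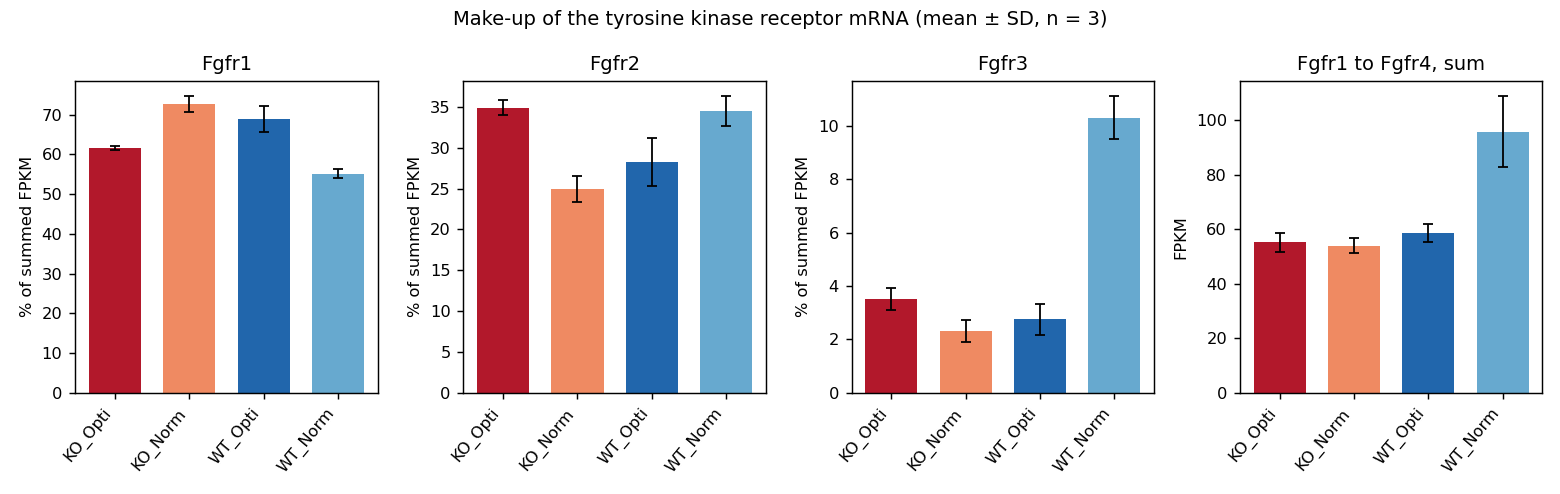
Shares of Fgfr1, Fgfr2 and Fgfr3 in the summed FPKM of Fgfr1 to Fgfr4 (percent), and that sum (FPKM), in KO_Opti, KO_Norm, WT_Opti and WT_Norm; bars are means and whiskers SD (n = 3). The Fgfr3 share is 10.3% in WT_Norm and 2.30 to 3.50% in the other groups, and the sum is highest in WT_Norm.

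Across the 12 libraries, Pearson correlations of log2(CPM + 1) were taken as a description, since libraries of a group share genotype and medium. Of the 45 pairs of FGF genes 4 had r of 0.9 or more, led by Fgfr2 and Fgfr3 at 0.979 and Fgf2 and Fgfr2 at 0.95. Fgf21 ran against the same genes, at -0.937 with Fgfr2, -0.921 with Fgfr3 and -0.913 with Fgf2. Fgf10 was at 0.086 with Fgf7 and at -0.607 with Fgfr3. Of the tested genes outside the set, the most alike to Fgf21 was Shmt2 (r = 0.981), a mitochondrial serine enzyme on the ATF4 list, followed by Necap2 (0.974) and Cth (0.973). Fgf7 was most like Sdc4, a heparan sulfate proteoglycan (0.961), Fgfr3 most like Gramd2 (0.99), Fgf10 most like Wdfy1 (0.989) and Fgf18 most like Acad12 (0.965).

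Annotated positions bear on some of these counts, since the kit kept strand but how strand was used in counting is not given in the sources used here. Positions in the table fit GRCm38, with 96.26% of matched gene IDs overlapping their GENCODE M21 position. Fgfr3 (chromosome 5, 33721674 to 33737068, plus strand) shares 998 exonic bases with the antisense gene G630022F23Rik, which had 0 to 85 counts per library. Fgf2 (chromosome 3, 37348346 to 37410108) shares 640 with the antisense gene Nudt6, at 79 to 211 counts, and Fgf10 (chromosome 13, 118669791 to 118789334) shares 123 with Gm16263, at 0 to 10 counts. Fgfr2 (chromosome 7, 130162451 to 133123350) shares 314 with Ctbp2 on the same strand, at 1652 to 3076 counts. Fgf7, Fgf18, Fgf21, Fgfr4 and Fgfrl1 shared none.

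The ATF4 list, of genes induced when amino acids are short or the endoplasmic reticulum is stressed, was set beside Fgf21. In WT_Opti against WT_Norm 21 of 22 were higher and 0 lower, beside 20.3% and 19.6% of all genes, with a median log2 fold change of 1.93. Ddit3, which encodes the stress factor CHOP, was higher by 3.91 ± 0.17, Chac1, a glutathione-degrading enzyme, by 3.68 ± 0.18, and the amino acid transporter subunit gene Slc3a2 by 2.12 ± 0.10 (edgeR adjusted p = 1.06e-08, 2e-08 and 2e-08). In KO_Norm against WT_Norm 20 were higher and 0 lower, beside 18.9% and 17.2% of all genes, with a median of 2.11. Among them were Shmt2 (2.02 ± 0.09), Phgdh (2.27 ± 0.11) and Asns (2.23 ± 0.11), enzymes of serine and asparagine metabolism. In KO_Opti against WT_Opti 1 was higher and 9 lower, beside 13.3% and 14.9% of all genes, with a median of -0.43. By the treatment entries 20 were higher and 1 lower against WT_Norm (median 1.56), beside 21.3% and 20.3% of all genes. Against WT_Opti 5 were then higher and 4 lower (median -0.10), beside 12.6% and 11.0% of all genes. The interaction was called negative for all 22, beside 17.0% of all genes. By the treatment entries it was negative for 19 and positive for 2, beside 17.5% and 17.2% of all genes. Klb, the coreceptor Fgf21 needs, named here after its values were seen, was between 0 and 0.0899 CPM in KO libraries and between 0 and 0.129 CPM in WT libraries.

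**Figure D5:**
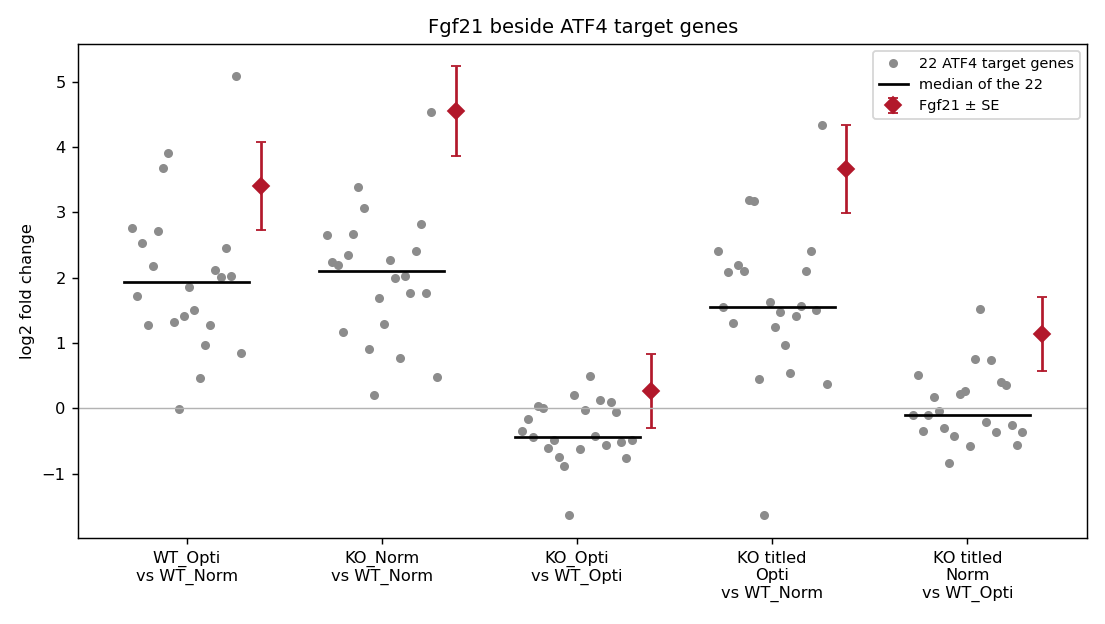
Log2 fold change of 22 ATF4 target genes (grey points, black line at their median) and of Fgf21 (red diamond ± SE) in 5 comparisons, the last 2 with the KO medium taken from the treatment entry. The list median is 1.93 and 2.11 in the first 2 comparisons and -0.43 in the third, and Fgf21 is at 3.40, 4.54 and 0.27.

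Of the feedback and target genes of FGF and ERK, 7 of 14 were lower and 1 higher in WT_Opti than in WT_Norm, beside 19.6% and 20.3% of all genes, with a median log2 fold change of -0.50. Ccnd1, a cyclin of the entry into the cell cycle, averaged 355 CPM in WT_Opti and 1040 in WT_Norm, and Dusp6, a phosphatase of ERK, 21.5 CPM in WT_Opti and 66.8 in WT_Norm. Spry4, a Sprouty inhibitor, averaged 3.71 CPM in WT_Opti and 18.9 in WT_Norm, and Dusp5, a nuclear ERK phosphatase, 3.53 CPM in WT_Opti and 18.2 in WT_Norm (log2 fold changes -1.56 ± 0.09, -1.64 ± 0.10, -2.35 ± 0.16 and -2.37 ± 0.19). KO_Norm was lower than WT_Norm for 7 and higher for 2, beside 17.2% and 18.9% of all genes. The KO libraries titled Opti were lower than WT_Norm for 8 and higher for 0, beside 20.3% and 21.3% of all genes. Spry1 went the other way from Spry4 in KO_Norm against WT_Norm, at 0.82 ± 0.13 and -1.81 ± 0.15. KO_Opti was higher than WT_Opti for 3 and lower for 2 (median -0.10), beside 13.3% and 14.9% of all genes. By the treatment entries, with the KO libraries titled Norm, 6 were higher and 0 lower (median 0.29), beside 12.6% and 11.0% of all genes.

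Among the coreceptors and binding proteins, 8 of 14 tested were lower and 1 higher in WT_Opti than in WT_Norm, beside 19.6% and 20.3% of all genes. Sdc4 and Sdc3, heparan sulfate proteoglycans of the cell surface, differed by -1.66 ± 0.09 and -1.41 ± 0.14, and Flrt3 and Flrt2, membrane proteins that bind FGF receptors, by -1.01 ± 0.15 and -0.98 ± 0.16. KO against WT over both media gave 3 higher and 5 lower, beside 18.0% and 16.0%: Ncam1, Flrt2 and Flrt3 were higher by 0.75 ± 0.07, 1.03 ± 0.11 and 0.93 ± 0.10, and Sdc1 was lower, at -0.74 ± 0.07. For heparan sulfate synthesis and editing, 2 of 18 were higher and 6 lower in WT_Opti than in WT_Norm, and 6 higher and 5 lower in KO than in WT, beside the same shares of all genes. The 3-O-sulfotransferase genes Hs3st3b1 and Hs3st3a1 were lower in both, at -1.43 ± 0.12 and -1.20 ± 0.13 for the medium and at -1.07 ± 0.08 and -1.20 ± 0.09 for the genotype. The sulfatase gene Sulf1 was higher in KO than in WT, by 0.94 ± 0.12.

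Of the signal transducers, in WT_Opti against WT_Norm 4 of 21 were higher and 1 lower, beside 20.3% and 19.6% of all genes, and Shc1, an adaptor, was higher by 0.79 ± 0.08. In KO against WT 8 were higher and 1 lower, beside 18.0% and 16.0% of all genes, with Map2k1, the kinase that activates ERK, at 0.69 ± 0.07 and Grb2, an adaptor, at -0.29 ± 0.06. Of the other FGF genes 13 were in the table and 8 were tested. In WT_Opti against WT_Norm 2 were higher and 3 lower, and in KO against WT 0 were higher and 3 lower, beside the same shares: Fgf13, an intracellular relative that binds sodium channels, at -1.37 ± 0.10, Fgf11 at -1.67 ± 0.30 and Fgf1 at -1.52 ± 0.34.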

How the data were processed

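Poly(A) RNA libraries, prepared with a TruSeq stranded kit and sequenced paired-end on a NovaSeq instrument, were processed by the authors, whose processing notes name HISAT2, StringTie, edgeR and FastQC. The deposited table holds raw read counts per gene, which the authors did not normalize, and FPKM values, which the authors scaled for gene length and library size. The sources used here do not give the genome build, the tool versions or how strand was used in counting.

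Counts were filtered with filterByExpr (count minimum 10), TMM-normalized and fitted over all 12 libraries with edgeR's quasi-likelihood test (edgeR 4.0.16, R 4.3.3). P-values were adjusted by Benjamini-Hochberg over 19118 genes at a threshold of 0.05. The biological coefficient of variation was 25.4%. SE is the log2 fold change over the root of F. No libraries were duplicates: within groups, chi-square per degree of freedom was 22.97 to 238.1. Counting limits for 0 counts rest on 3 counts and cover counting error only. Alternatives were other size factors, DESeq2 1.42.0, limma 3.58.1 on log2(FPKM + 0.1) or log2(FPKM + 1) of the deposited FPKM, no filter, a replicate block, a Y-linked covariate, only the groups compared, the treatment entry as medium, and each library left out.

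All 10 FGF genes are named. Of each pathway list up to 4 genes with the smallest adjusted p in a comparison could be named, and for each FGF gene the 3 most correlated genes. The genes and lists were chosen with earlier results of these data known. The fit was tested on simulated data.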

Additional observations from a re-analysis of the deposited data

Results flagged for a closer look

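For 7 of the 10 FGF genes the difference between Opti and Norm was not the same in KO and WT cells, by the interaction term of the edgeR fit over all genes. Of all genes 14.4% were called positive and 17.0% negative. The interaction on the log2 scale, with media by title, was 3.30 for Fgfr3, 1.60 for Fgf7, 1.60 for Fgfr2, 1.21 for Fgf2 and 1.14 for Fgfrl1, and it was -4.28 for Fgf21 and -2.67 for Fgf18. For Fgfr3, Fgfr2, Fgf7, Fgf2 and Fgfrl1 the WT_Norm libraries were the highest of the 4 groups, and for Fgf21 they were the lowest, with 0, 8 and 18 raw counts. For Fgf18 the WT_Opti libraries stood above the others. These 7 were also called, with the same sign, when the medium of the KO libraries was taken from the treatment entry. Of all genes 17.2% were then positive and 17.5% negative. Both readings share the WT difference, so a kept sign adds little. With the Y-linked covariate 6 of the 7 were called, beside 8.78% of all genes called positive and 9.31% negative. Fgf18 was then at -2.54 (edgeR adjusted p = 0.13). Groups of 3 libraries were not searched for single libraries that stand apart.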

How the results depend on the processing

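Counts of FGF genes called were within 1.5 times of those reported under every alternative run for WT_Opti against WT_Norm and for the interaction, and for the other comparisons apart from the following. With the Y-linked covariate the count was 3 in place of 6 for KO against WT over both media, 4 in place of 9 for KO_Norm against WT_Norm, 3 in place of 5 for KO_Opti against WT_Opti and 0 in place of 4 for KO_Opti against KO_Norm. The calls over all genes fell too, to 407 higher and 579 lower, 410 and 499, 1761 and 2124, and 839 and 1088 in these comparisons. With the treatment entry it was 3 in place of 5 for KO_Opti against WT_Opti. For KO_Opti against KO_Norm it was 2 with no filter on low counts, 2 on FPKM with no filter and 2 with the replicate block. With each library left out in turn it was 0 to 4 for that comparison, 8 to 9 for WT_Opti against WT_Norm and for KO_Norm against WT_Norm, 6 to 8 for KO against WT, 4 to 5 for KO_Opti against WT_Opti and 7 to 8 for the interaction. For WT_Opti against WT_Norm and KO_Norm against WT_Norm these counts include Fgfr4 where it was called, though it had to differ. Calls over all genes moved too. For KO against WT they were 3384 higher and 3036 lower without KO_Norm replicate 1, and 2860 and 2618 without WT_Opti replicate 2. For KO_Opti against WT_Opti they were 3054 and 2951 without WT_Norm replicate 3, and 1881 and 2228 without WT_Opti replicate 2. For the interaction they were 2873 and 3231 without WT_Norm replicate 2, and 2191 and 2685 without WT_Opti replicate 2. The cause of these changes in count was not tested.

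Whether the replicate numbers pair the libraries is not known. The 18 same-numbered pairs had correlations of deviations from the group means between -0.285 and 0.344, and other pairs between -0.446 and 0.348. Deviations from the mean of so few libraries depend on each other, so these ranges cannot show whether libraries were paired. With the replicate block 8, 6, 8, 5, 2 and 7 genes were called in WT_Opti against WT_Norm, KO against WT, KO_Norm against WT_Norm, KO_Opti against WT_Opti, KO_Opti against KO_Norm and the interaction. Of all 19118 genes 3783 were then higher and 3494 lower, 3361 and 2899, 3527 and 2951, 2455 and 2748, 1502 and 2026, and 2583 and 3177, in the same order. Fgfr4 was not among the genes called against WT_Norm, in WT_Opti or in KO_Norm, with the replicate block or with no filter on low counts. It had to differ between groups, so its calls carry no weight.

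Signs changed for values that were small or, under the treatment entry, by construction. Under the treatment entry KO_Opti against KO_Norm was -0.34 for Fgf2, -0.38 for Fgf7, -0.0009 for Fgf10, -0.68 for Fgf18, 0.87 for Fgf21, 0.34 for Fgfr1, -0.38 for Fgfr2, -0.49 for Fgfr3, -0.39 for Fgfr4 and -0.31 for Fgfrl1. KO_Opti against WT_Opti was then -0.14 for Fgf2, 0.0044 for Fgfr1, -0.24 for Fgfr2, -0.31 for Fgfr3 and -0.30 for Fgfr4. With the Y-linked covariate Fgfr2 was at -0.026 and Fgfr4 at -0.85 in KO_Opti against WT_Opti, and Fgf10 at -0.27 in KO_Opti against KO_Norm. The interaction of Fgf10 was 0.0096 on log2(FPKM + 1).

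With a library left out, Fgf10 ran between -0.060 and 0.45 in WT_Opti against WT_Norm, between -0.046 and 0.084 in KO_Opti against KO_Norm and between -0.41 and 0.048 in the interaction. Fgfr4 ran between -1.18 and 0.73 in KO_Opti against WT_Opti and between -0.88 and 4.86 in KO_Opti against KO_Norm. None of these was called as reported. Of all single values under the alternatives, 1156 kept their sign and call, 72 lost their call, 20 gained one and 32 changed sign.

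On log2(FPKM + 0.1) the median of all genes shifted to 0.18 in WT_Opti against WT_Norm, where 5428 genes were higher and 2364 lower, against 3874 and 3742 in counts. It was 0.11 in KO against WT (4682 higher and 2165 lower, against 3437 and 3054), 0.12 in KO_Norm against WT_Norm (4615 and 2108, against 3615 and 3281), 0.080 in KO_Opti against WT_Opti (2789 and 2087, against 2539 and 2856) and 0.11 in KO_Opti against KO_Norm (2071 and 897, against 1604 and 2105). Depth limits Fgfr4 most, with at most 9 raw counts in any library outside WT_Norm, followed by Fgf18 and Fgf21 in WT_Norm.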
